A study of Mus musculus with 28 samples.

Results

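The 8 genes described here encode the chains of the common gamma chain (γc) cytokine receptors, *Il2ra*, *Il2rb*, *Il2rg*, *Il4ra*, *Il7r*, *Il9r*, *Il15ra* and *Il21r*. They were taken by symbol from the 24089 genes of an RNA-seq table of mouse T cells with 24 value columns, and all 8 were found there. The cells were naïve CD4+ T cells (CD4+ CD62L+) from spleen and lymph nodes of adult *Tgfbr1* f/f *Ert2-cre*+ mice on a C57BL/6 background. All mice carried the floxed allele and the Cre, which is activated by tamoxifen and is not limited to T cells. WT mice had been given oil and KO mice tamoxifen, so the loss of *Tgfbr1*, the type I receptor for TGF-β, and the tamoxifen treatment cannot be told apart. Oil and tamoxifen are named in the DNase-seq titles. The RNA-seq titles give only WT and KO, and the same mouse line and treatment are assumed for them. Cells were stimulated with anti-CD3 and anti-CD28 in medium (control), with either TGF-β or IL-4, or with TGF-β + IL-4, the last being the condition that drives Th9 differentiation. Each of the 8 groups held 3 RNA-seq libraries, numbered 1 to 3 in the labels. The labels do not say whether a number stands for 1 animal or culture, so p-values measure the spread between these libraries, which may be technical. DNase-seq, which marks open chromatin, gave 1 library per genotype for control and 1 for the combination of both cytokines.

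The headings of the RNA-seq table conflict with read counts in the supplement of the study, and this decides how every value below was assigned. Counts were at hand for 8 WT libraries, those of replicates 1 and 3 in the 4 cultures. Each was compared with all 24 columns by which genes stood at 0. All 8 matched the column at the position of their library number, with the same zero status in at least 99.849% of the genes compared, against at most 85.789% for the next best column. Only 2 of the 8 sat under their own heading, and 6 sat under the heading of another WT culture. The columns were therefore read by position in library-number order, which puts the WT libraries in columns 1 to 12 and the KO libraries in columns 13 to 24, each block of 4 holding the cultures of 1 replicate number in the order control, TGF-β, IL-4 and both cytokines. The 4 WT columns of replicate 2 and all 12 KO columns had no counts to check them, so their culture rests on position alone. The genotype of every column is the same in both readings. Read as headed, none of the 8 genes passed the calling rule in the comparisons below.

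The γc chain is the shared signalling subunit of the receptors for IL-2, IL-4, IL-7, IL-9, IL-15 and IL-21. Each cytokine binds a private chain that joins γc, and IL-2 and IL-15 share a second signalling chain, the IL-2 receptor β chain, to which a private α chain adds affinity. The receptors signal through the kinases JAK1 and JAK3, mainly to STAT5 for IL-2, IL-7, IL-9 and IL-15, to STAT6 for IL-4 and to STAT3 for IL-21. In activated T cells IL-2 drives proliferation, and IL-4 is used together with TGF-β to drive Th9 cells.

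Levels are given as RPKM, reads per kilobase of gene scaled by the library's mapped reads, so that they can be compared between genes. Over all 24 libraries *Il2rg* averaged 414 RPKM, *Il2rb* 181, *Il21r* 83.4, *Il4ra* 68.9, *Il2ra* 58.8, *Il15ra* 10.8 and *Il7r* 3.53. *Il2rg* and *Il2rb* were the highest of the family in every group, above 97.4% and 93.6% of the 9726 genes that passed a mean of 1 RPKM. In WT control the order was *Il2rg*, *Il2rb*, *Il21r*, *Il2ra*, *Il4ra*, *Il15ra* and *Il7r*, and no neighbours in it overlapped. *Il4ra* overtook *Il21r* in WT TGF-β + IL-4 (92.8 RPKM against 89.4), where the libraries of the pair overlapped. *Il2ra* overtook *Il21r* in WT TGF-β (90.9 against 59.8), where they did not. In KO TGF-β + IL-4 *Il2rb* and *Il4ra* overlapped as well.

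*Il9r*, the private chain for IL-9, was the exception. It was listed between 0 and 0.0973 RPKM, at 0 in 4 libraries, all of them KO. In the other 20 its values were whole multiples (within 0.1) of the smallest value once relative depth was taken into account, and the highest came to 7 such steps. Its mean was 0.0496 RPKM over the WT libraries and 0.0225 over the KO libraries. *Il9r* stayed under the filter, so this difference was not tested there, and 7 of the 8 genes were tested. Differences were tested with limma on log2(RPKM + 1) over all 24 libraries, and calls required a p under 0.01 after Benjamini-Hochberg adjustment together with a fold change over 1.5 (0.585 on the log2 scale). Log2 changes are given ± SE from that fit, and all folds are on the scale of RPKM + 1. The cells of a bulk library are averaged, so fewer cells with a transcript and less transcript per cell cannot be told apart.

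**Figure D1:**
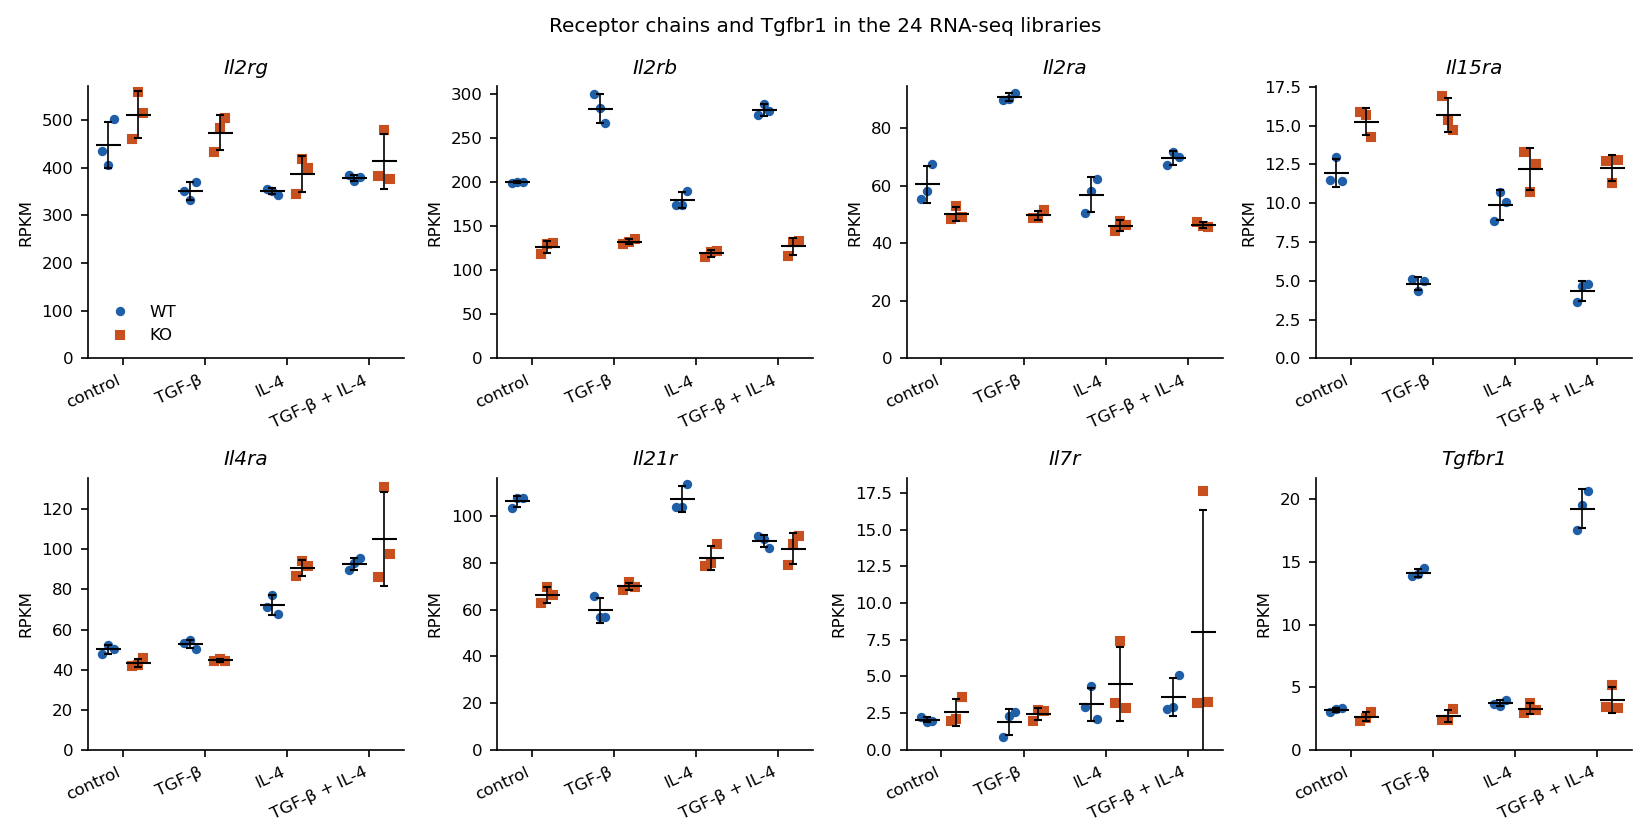
RPKM (y axis, from 0) of 7 receptor genes and of Tgfbr1 in each of the 24 libraries, by culture (x axis), with WT as circles and KO as squares and the mean ± SD (n = 3) as bars, cut at 0 for Il7r in KO TGF-β + IL-4. Il2rb and Il2ra were on average highest and Il15ra lowest in the WT cultures with TGF-β, and Il4ra was highest in the cultures with IL-4 of both genotypes.

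The deleted gene was checked first. *Tgfbr1* was 3.02, 3.25 and 3.31 RPKM in WT control and 2.32, 2.55 and 3.05 in KO control, so the basal levels lay close together. In WT TGF-β it was 13.88, 13.998 and 14.48 RPKM, and in WT TGF-β + IL-4 17.6, 19.5 and 20.7. All 12 KO libraries lay between 2.32 and 5.18 RPKM, below every WT library that had received TGF-β. The signal over the whole gene does not show which exons were read, so the KO values do not measure how many cells had lost the gene.

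With TGF-β alone *Il15ra* and *Il21r* fell in WT cells. *Il15ra*, the private α chain of the IL-15 receptor, was 11.47, 12.99 and 11.43 RPKM in WT control and 5.12, 4.36 and 4.96 in WT TGF-β. No library of one group reached the other. *Il15ra* fell by 1.16 ± 0.10 on the log2 scale, or 2.23-fold (limma, adjusted p = 6.5e-09). *Il21r*, the private chain for IL-21, was 103.7, 107.8 and 107.6 RPKM in WT control and 66.0, 56.7 and 56.7 in WT TGF-β, again without overlap. It fell by 0.82 ± 0.06, or 1.77-fold (limma, adjusted p = 2.1e-09). These were the 2 of 7 members called, against 5.40% of all genes tested.

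The signalling chain *Il2rb* and the α chain *Il2ra* were higher with TGF-β by slightly less than the fold asked for. *Il2ra*, which encodes CD25, was 55.6, 58.3 and 67.6 RPKM in WT control and 89.9, 90.4 and 92.3 in WT TGF-β, so that the groups stood apart. Its log2 change of 0.584 ± 0.068 had an adjusted p of 1.1e-06 (limma) and a fold that lay just below the limit of 1.5. The ratio of its mean RPKM, without the 1 added, was 1.502. *Il2rb* was 198.7, 200.6 and 200.5 RPKM in WT control and 299.7, 283.9 and 267.1 in WT TGF-β. Its log2 change was 0.50 ± 0.05, or 1.41-fold (limma, adjusted p = 4.0e-07), and each TGF-β library lay above each control. *Il2rg*, the shared chain, was 434.7, 406.6 and 502.0 RPKM in WT control and 352.0, 332.1 and 370.9 in WT TGF-β, a log2 change of -0.34 ± 0.09 that missed the threshold (limma, adjusted p = 0.012). *Il4ra* and *Il7r* had log2 changes of 0.07 and -0.11, with 95% intervals from -0.12 to 0.27 and from -0.98 to 0.76.

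IL-4 alone called no receptor gene in WT cells, against 1.31% of all genes (limma). An unadjusted p under 0.05 was reached by 4 of 7 members and 1555 of 9726 genes (limma). The gene nearest to a call was that of the receptor for IL-4 itself. *Il4ra*, whose chain binds IL-4 with γc and also pairs with the IL-13 receptor α chain, was 48.0, 52.1 and 50.1 RPKM in WT control and 71.1, 77.4 and 67.6 in WT IL-4. All 3 IL-4 libraries lay above the controls, with a log2 change of 0.52 ± 0.09 and a fold of 1.43 that fell short of the limit (limma, adjusted p = 0.0013). *Il2rg* was 356.0, 351.2 and 343.8 RPKM in WT IL-4, a log2 change of -0.35 ± 0.09 (limma, adjusted p = 0.031). *Il21r* was 103.8, 104.1 and 113.6 RPKM in WT IL-4 and overlapped its control, with a 95% interval of the log2 change from -0.12 to 0.14.

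In WT TGF-β + IL-4, *Il4ra* rose and *Il15ra* fell, 2 of 7 members against 8.46% of all genes. This comparison and both above share the WT control libraries. *Il4ra* reached 89.7, 93.1 and 95.7 RPKM, all above every other WT library, and rose by 0.88 ± 0.09 on the log2 scale, or 1.84-fold (limma, adjusted p = 3.0e-07). *Il15ra* was 3.61, 4.68 and 4.78 RPKM and fell by 1.28 ± 0.10, or 2.43-fold (limma, adjusted p = 1.4e-09). *Il2rb* stood at 275.9, 289.1 and 280.6 RPKM, apart from its control, with a log2 change of 0.49 ± 0.05 below the fold asked for (limma, adjusted p = 4.1e-07). *Il2ra* at 67.2, 71.8 and 70.1 RPKM overlapped the highest control of 67.6, and its log2 change of 0.21 ± 0.07 missed the threshold (limma, adjusted p = 0.020).

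The chains differed in how they stood when IL-4 was added to TGF-β. Between WT TGF-β + IL-4 and WT TGF-β, *Il4ra* rose by 0.80 ± 0.09 on the log2 scale, or 1.74-fold (limma, adjusted p = 3.8e-06), the 1 member of 7 called against 2.29% of all genes. *Il21r* was 91.4, 90.3 and 86.5 RPKM with both cytokines, between its levels in control and in TGF-β and apart from both. Its log2 change from TGF-β of 0.576 ± 0.063, a fold of 1.49, lay just under the limit (limma, adjusted p = 1.6e-06). *Il2ra* was lower with both cytokines than with TGF-β alone by 0.38 ± 0.07 (limma, adjusted p = 0.00054), without overlap and below the fold asked for. The libraries overlapped for *Il2rb* and *Il15ra*, with 95% intervals of the log2 change from -0.12 to 0.11 and from -0.32 to 0.08.

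Adding TGF-β to IL-4 raised *Il2rb* and lowered *Il15ra*, 2 of 7 members against 8.54% of all genes. *Il2rb* was 174.6, 174.3 and 190.2 RPKM in WT IL-4, the lowest group in WT, and rose by 0.65 ± 0.05 on the log2 scale, or 1.57-fold, with both cytokines (limma, adjusted p = 9.4e-09). *Il15ra* was 8.83, 10.7 and 10.1 RPKM in WT IL-4 and fell by 1.02 ± 0.10, or 2.03-fold (limma, adjusted p = 4.1e-08). *Il4ra* was higher by 0.36 ± 0.09 (limma, adjusted p = 0.0041) and *Il2ra* by 0.29 ± 0.07 (limma, adjusted p = 0.0017), both below the fold asked for and both without overlap between the groups.

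Whether the change with IL-4 depended on TGF-β was tested as an interaction within WT. No member was called (limma, with 4 of 7 members and 2094 of 9726 genes at an unadjusted p under 0.05). Over all genes 1.25% were called. The 122 genes behind that share fell to 75 without WT control 1, to 78 without WT TGF-β 3 or WT TGF-β + IL-4 3, and to 68 without WT IL-4 3. *Il21r* came closest, with a difference of 0.566 ± 0.089 between the log2 change with IL-4 in the presence and in the absence of TGF-β (limma, adjusted p = 0.00071), below the fold asked for. For *Il4ra* that difference was 0.29 ± 0.13 (limma, adjusted p = 0.21), with a 95% interval from 0.01 to 0.57.

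**Figure D2:**
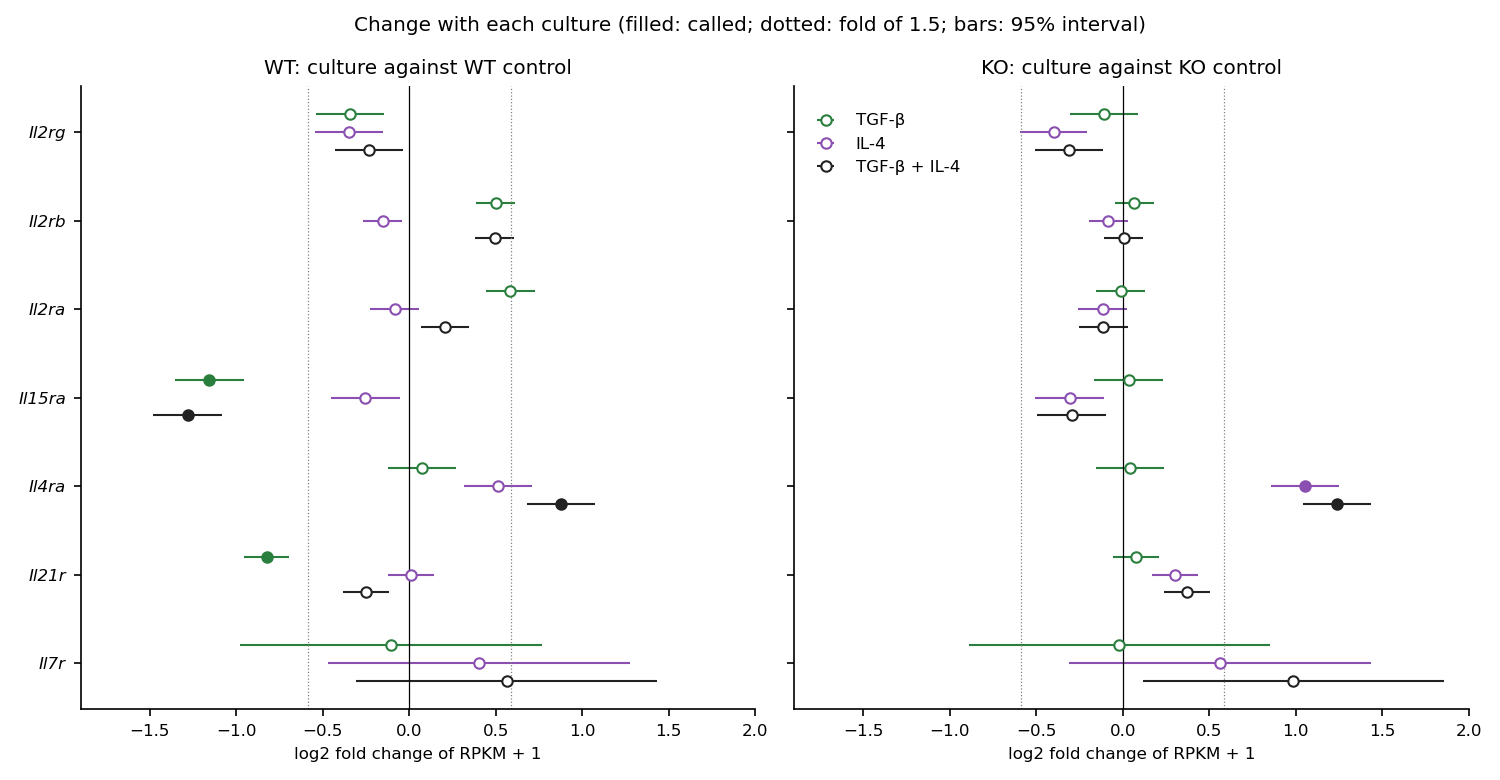
Log2 fold change of RPKM + 1 (x axis) of 7 receptor genes (rows) in each culture against the control of the same genotype, WT on the left and KO on the right, with 95% intervals and filled points for called genes. The KO points for TGF-β sit between -0.11 and 0.08, and Il4ra is called with TGF-β + IL-4 in both genotypes.

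With TGF-β alone no receptor gene was called in KO cells, against 0.0617% of all genes (limma). An unadjusted p under 0.05 was reached by 0 of 7 members and 281 of 9726 genes (limma). The log2 changes of the members lay between -0.11 and 0.08. Leaving aside *Il7r*, whose values vary more, the 95% intervals ran from -0.30 to 0.24. *Il15ra* was 15.9, 15.7 and 14.2 RPKM in KO control and 16.9, 15.4 and 14.7 in KO TGF-β, and *Il21r* was 63.0, 69.8 and 66.3 against 68.6, 71.7 and 69.6. *Il2rb* was 118.6, 129.4 and 131.2 RPKM in KO control and 129.5, 132.5 and 135.3 in KO TGF-β. *Il2ra* was 48.3, 53.0 and 49.1 RPKM against 48.9, 48.8 and 51.6. The groups overlapped for all 4 genes.

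*Il4ra* rose with IL-4 in KO cells as well. It was 41.8, 42.4 and 45.6 RPKM in KO control and 86.4, 94.0 and 91.9 in KO IL-4, a log2 change of 1.05 ± 0.09 or 2.07-fold (limma, adjusted p = 5.4e-08). In KO TGF-β + IL-4 it was 86.1, 131.3 and 97.4 RPKM, a log2 change of 1.24 ± 0.09 or 2.36-fold against the same controls (limma, adjusted p = 4.5e-09). Every KO library with IL-4 lay above every KO library without it. *Il4ra* was the 1 member of 7 called in each, against 2.65% and 2.86% of all genes. *Il21r* was 78.7, 79.8 and 88.2 RPKM in KO IL-4 and 79.0, 88.1 and 91.5 when TGF-β was present too, above KO control by 0.30 ± 0.06 and 0.37 ± 0.06 (limma, adjusted p = 0.0024 and 0.00030), below the fold asked for. *Il2rg* was 345.0, 418.4 and 399.3 RPKM in KO IL-4, a log2 change of -0.40 ± 0.09 (limma, adjusted p = 0.0070) that was also below it.

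One KO library set the upper end for 2 genes. In the KO TGF-β + IL-4 library of replicate 2, which had the lowest relative depth (0.794), *Il4ra* stood at 131.3 RPKM and *Il7r*, the chain for IL-7 that also serves TSLP, at 17.7, while the other 2 libraries of the group had *Il7r* at 3.19 and 3.23. The KO IL-4 library of replicate 2 held the next highest *Il7r*, 7.42 RPKM, and the remaining 22 libraries lay between 0.90 and 5.08. *Il7r* was not called in any comparison, and its log2 change of 0.99 ± 0.42 in KO TGF-β + IL-4 (limma, adjusted p = 0.15) was 0.27 ± 0.31 without that library (limma, adjusted p = 0.69). *Il4ra* was still called without it, at 1.07 ± 0.06 (limma, adjusted p = 1.6e-10).

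Between the genotypes, *Il2rb* and *Il21r* were lower in KO control than in WT control, 2 of 7 members against 2.64% of all genes. *Il2rb* at 118.6, 129.4 and 131.2 RPKM lay below all WT libraries, lower by 0.66 ± 0.05 on the log2 scale or 1.58-fold (limma, adjusted p = 2.6e-08). *Il21r* at 63.0, 69.8 and 66.3 RPKM was lower by 0.67 ± 0.06 or 1.59-fold (limma, adjusted p = 1.8e-07). No TGF-β was added to either group. For *Il2ra* and *Il15ra* the log2 differences of -0.26 ± 0.07 and 0.33 ± 0.10 missed the threshold (limma, adjusted p = 0.0105 and 0.021).

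With TGF-β + IL-4, the genotypes differed in *Il15ra* and *Il2rb*, 2 of 7 members against 9.16% of all genes. *Il15ra* was 12.7, 11.3 and 12.8 RPKM in KO and 3.61, 4.68 and 4.78 in WT, higher in KO by 1.31 ± 0.10 or 2.49-fold (limma, adjusted p = 6.1e-10). *Il2rb* was 116.4, 132.2 and 132.8 RPKM in KO and 275.9, 289.1 and 280.6 in WT, lower in KO by 1.14 ± 0.05 or 2.21-fold (limma, adjusted p = 5.9e-13). *Il2ra* at 47.3, 46.1 and 45.5 RPKM in KO lay below all WT libraries, by 0.579 ± 0.068 (limma, adjusted p = 7.0e-07), just under the fold asked for. Its ratio of mean RPKM, KO over WT without the 1 added, was 0.6645, slightly beyond that fold. *Il4ra* and *Il21r* overlapped between the genotypes, with 95% intervals of the log2 difference from -0.04 to 0.35 and from -0.19 to 0.08.

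The change with TGF-β was then compared between the genotypes. It differed for *Il15ra*, *Il21r* and *Il2ra*, 3 of 7 members against 4.23% of all genes. The log2 change of *Il15ra* was higher in KO than in WT by 1.19 ± 0.13 (limma, adjusted p = 1.7e-06) and that of *Il21r* by 0.90 ± 0.09 (limma, adjusted p = 3.1e-07). That of *Il2ra* was lower by 0.594 ± 0.096 (limma, adjusted p = 0.00016), close to the fold asked for. It fell short of that fold without any 1 of 6 libraries, with values from -0.583 to -0.536 (WT control 1 and 2, WT TGF-β 3, KO control 2, and KO TGF-β 1 and 2). *Il2rb* differed by -0.43 ± 0.08 (limma, adjusted p = 0.00044), below that fold.

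For TGF-β + IL-4 the interaction with genotype called *Il15ra*, at 0.99 ± 0.13 (limma, adjusted p = 2.1e-05), and *Il21r*, at 0.62 ± 0.09 (limma, adjusted p = 3.9e-05). They were 2 of 7 members, against 5.17% of all genes. *Il21r* lost the fold without the KO control library of replicate 1 (0.583) or the KO TGF-β + IL-4 library of replicate 3 (0.575). The value for *Il2rb* was -0.49 ± 0.08 (limma, adjusted p = 0.00011), below the fold asked for. For IL-4 alone no member was called, against 0.113% of all genes (limma). An unadjusted p under 0.05 was reached by 2 of 7 members and 735 of 9726 genes (limma). The log2 change of *Il4ra* with IL-4 was larger in KO by 0.54 ± 0.13, which did not pass the correction (limma, adjusted p = 0.097), and that of *Il21r* by 0.29 ± 0.09 (limma, adjusted p = 0.27).

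**Figure D3:**
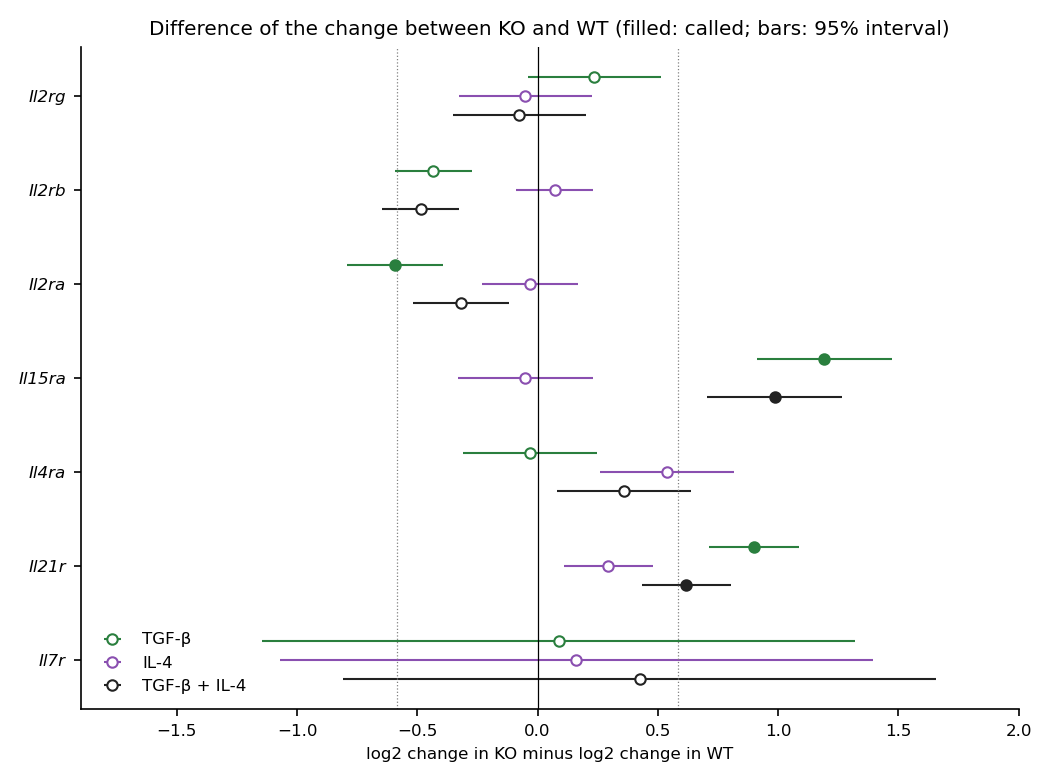
Log2 change in KO minus log2 change in WT (x axis) of 7 receptor genes (rows) for each culture against its own control, with 95% intervals, filled points for called genes and dotted lines at a fold of 1.5. Il15ra and Il21r lie to the right and Il2ra and Il2rb to the left with TGF-β and with TGF-β + IL-4, and Il4ra has its highest value, 0.54, with IL-4.

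As a description over the 24 libraries, which share genotypes and cultures, *Il2ra* and *Il2rb* moved together (Pearson's r = 0.92) and *Il15ra* ran against both (r = -0.82 with *Il2ra* and -0.89 with *Il2rb*). *Il2rg* had its highest r among the members with *Il15ra* (0.58). The genes most like each member over these libraries were named by Pearson's r, up to 3 for each. They were *Skil*, *Dusp4* and *Ptpn1* for *Il2rb* (0.985, 0.983 and 0.982), *Rab27a* and *Stk38l* for *Il2ra* (0.960 and 0.959) and *Crtam*, *Sema4c* and *Utf1* for *Il15ra* (0.981, 0.972 and 0.970). For *Il4ra* they were *Wdr59*, *Dusp10* and *Gsn* (0.979, 0.976 and 0.960), for *Il21r* *Clic4*, *Nfkbia* and *Cacnb3* (0.954, 0.940 and 0.925), and for *Il2rg* *Cd9*, *Pdia3* and *Itm2a* (0.929, 0.911 and 0.909). For *Il7r*, where 1 library lay far above the rest, they were *Dnajc7*, *Gm14446* and *Gmfg* (0.925, 0.910 and 0.897).

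The ligands were measured in the same libraries. *Il2* was 76.6, 65.7 and 64.9 RPKM in the WT control, 10.3, 9.75 and 10.6 with TGF-β, 113.3, 108.4 and 108.7 in WT IL-4 and 40.3, 38.5 and 34.5 in WT with both cytokines. The 4 groups did not overlap. *Il2* fell by 2.64 ± 0.13 on the log2 scale with TGF-β (limma, adjusted p = 2.1e-12), while *Il2ra* and *Il2rb* were higher there. *Il2* fell by 0.85 ± 0.13 with both cytokines (limma, adjusted p = 3.6e-05). In KO, *Il2* lay between 48.9 and 94.2 RPKM in all cultures.

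*Il9*, the cytokine that defines Th9 cells, was 9.93, 10.9 and 8.15 RPKM in the WT control, 45.9, 45.2 and 40.1 with TGF-β and 36.1, 33.6 and 34.1 in WT TGF-β + IL-4. Each WT library with TGF-β alone lay above each with both cytokines, a difference that was not called (limma). Against WT control *Il9* was called higher with TGF-β alone and was not called with IL-4 alone. The study states that neither cytokine by itself makes T cells transcribe *Il9*, unlike the WT TGF-β values here. In KO, *Il9* lay between 0.25 and 2.72 RPKM in all libraries, below every WT library. *Il9* rose by 1.75 ± 0.18 with TGF-β + IL-4 in WT (limma, adjusted p = 1.5e-07) and by 1.03 ± 0.18 from much lower levels in KO (limma, adjusted p = 0.00033). *Il4* reached at most 2.82 RPKM and was not called. *Il7*, *Il15*, *Il21* and *Tslp* stayed under the filter, with *Il21* reaching 3.09 RPKM in WT IL-4 and the other 3 at most 0.43.

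The wider γc pathway was described by a list of 24 genes, made of the 7 ligands, *Il13ra1* and *Crlf2*, which pair with receptor chains above, and 15 signalling genes. In WT TGF-β + IL-4 against WT control, 7 of the 18 that could be tested rose and 1 fell, where 8.46% of all genes were called, and the median log2 change was 0.41, against 0.02 over all genes. *Stat5a* and *Stat5b*, the STATs of the IL-2 receptor, rose by 1.12 ± 0.07 and 1.08 ± 0.05 (limma, adjusted p = 4.8e-11 and 2.3e-12). The feedback inhibitors *Socs2*, *Socs1* and *Cish* rose by 1.73 ± 0.07, 0.89 ± 0.05 and 0.81 ± 0.13 (limma, adjusted p = 2.9e-14, 2.3e-11 and 4.5e-05), and *Bcl2*, which promotes survival, by 0.87 ± 0.22 (limma, adjusted p = 0.0035). With TGF-β alone 3 rose and 2 fell in WT (5.40% of all genes) and none was called in KO (0.0617%), and with TGF-β + IL-4 in KO 5 rose and none fell (2.86%). In KO against WT, 9 were lower and none higher in control (2.64%), and 9 were lower and 2 higher with TGF-β + IL-4 (9.16%).

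Of 18 cytokine receptor chains outside the family, 13 could be tested. In WT TGF-β + IL-4 5 of them rose and 3 fell (8.46% of all genes), and with TGF-β alone 1 rose and 3 fell (5.40%). *Il6ra*, the IL-6 receptor, rose by 1.35 ± 0.16 with both cytokines (limma, adjusted p = 9.4e-07), and *Il12rb2* of the IL-12 receptor fell by 0.90 ± 0.13 (limma, adjusted p = 1.1e-05). The others called were *Il6st*, *Csf2rb*, *Ifngr2* and *Il17ra*, with log2 changes from 0.63 to 0.74, and *Il10ra* and *Il12rb1*, at -0.81 and -0.71. In KO TGF-β no chain on this list was called (0.0617%). The median log2 change in WT TGF-β + IL-4 was 0.30 on this list and 0.21 over the 7 γc members.

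The libraries carried the marks of T cells, with all 7 T cell markers above 1 RPKM on average in every group. The summed level of 8 myeloid markers differed between the groups. It was 9.55 to 20.9 RPKM in WT control, 48.3 to 89.3 in WT TGF-β, 20.4 to 49.3 in WT IL-4 and 92.1 to 142 in WT with both cytokines, against 0.63 to 21.8 in KO. None of the 4 that could be tested was called in WT with TGF-β or IL-4 alone, and *S100a9* and *Chil3* rose in WT with both cytokines. *S100a8* was the highest of the list in every WT culture with TGF-β, and the 4 markers *Csf1r*, *Itgam*, *Cd14* and *Emr1* stayed at or below 0.75 RPKM in all 24 libraries. The CD8 genes *Cd8a* and *Cd8b1* summed to 24.8 to 26.9 RPKM in WT control, 16.6 to 17.3 with TGF-β, 29.9 to 36.3 with IL-4 and 25.3 to 26.7 with both. In KO the sums were 14.8 to 16.7, 14.3 to 15.2, 26.3 to 27.2 and 26.3 to 28.3. *Cd8b1* fell with TGF-β in WT, and *Cd8a* was lower in KO than in WT control, at a mean of 1.23 against 5.78 RPKM, and with both cytokines. NK cell markers (3 genes) summed to 3.18 to 3.47 RPKM in WT control, 1.49 to 1.86 with TGF-β, 5.06 to 6.90 with IL-4 and 2.46 to 3.24 with both, and to 1.98 to 6.45 in KO. *Ncr1* of that list fell with TGF-β and rose with IL-4 in WT. B cell markers (4 genes) summed to 10.9 to 33.3 RPKM in WT and 7.89 to 26.0 in KO. The part of other cells in the receptor values was not tested.

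The 8 genes lie at 6 loci on the mm9 build, *Il2ra* at chr2:11564419-11614818 (plus strand), *Il15ra* at chr2:11626914-11655613 (plus), *Il4ra* at chr7:132695785-132722986 (plus), *Il21r* at chr7:132746943-132777084 (plus), *Il2rb* at chr15:78310983-78325496 (minus), *Il7r* at chr15:9435916-9459631 (minus), *Il9r* at chr11:32087541-32100279 (minus) and *Il2rg* at chrX:98459717-98463594 (minus). There are 6 because *Il2ra* and *Il15ra* are neighbours on chromosome 2 (12095 bp apart) and *Il4ra* and *Il21r* on chromosome 7 (23956 bp apart), and the windows of such a pair overlap. Within 20000 bp of a gene the 4 DNase-seq libraries together gave 57 DNase I hypersensitive sites (DHSs). By the GENCODE annotation of that build, 24 sites were intergenic and 15 lay in introns. Of the 57, 55 were called in WT control and 41 in KO control, and with both cytokines 42 in WT and 39 in KO. All 4 lists shared 36 sites and 14 were in 1 list, without such a count over all DHSs beside them. The whole lists fell in the same order, with 44298 and 33665 DHSs in the controls of WT and KO and 33880 and 27145 with both cytokines. With 1 library a condition no difference in DHSs has a test.

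DHSs stood at the promoters of *Il2ra*, *Il2rb*, *Il2rg*, *Il4ra*, *Il7r*, *Il15ra* and *Il21r* in all 4 lists, within 1000 bp of an annotated start. Between 47.0% and 51.0% of 22380 protein-coding genes had one. At a -log10 q of at least 5 the DHS at *Il15ra* dropped out in KO with both cytokines. *Il9r* had a promoter DHS only in WT control, with a fold enrichment of 2.48 over the local background, near the bottom of that list. *Il7r*, whose RPKM was low, had 4 sites that all 4 lists shared, one of them at its promoter. The *Il15ra* promoter had folds of 6.32 (control) and 5.65 (both cytokines) in WT, against 4.14 and 3.64 in KO. At *Il2rb* the DHS at the gene start had 7.99 and 7.43 in WT and 4.64 and 5.84 in KO. Another promoter DHS of *Il2rb* lay 1347 bp downstream, within 1000 bp of a further annotated start. It had 8.38 and 5.80 in WT and 5.93 and 5.29 in KO. The *Il4ra* promoter had 5.47 and 5.16 in WT and 4.94 and 4.26 in KO. Folds at the promoters of *Il2ra*, *Il2rg*, *Il7r* and *Il21r* were also lower in KO than in WT of the same culture. Those of *Il2rg* were 8.76 and 6.56 in WT and 5.01 and 4.61 in KO. Folds were not scaled between lists. Ranked within its own list, from the highest fold down, the *Il2ra* promoter stood at 42.2% in both controls. The *Il4ra* promoter ranked higher in KO control (44.32%) than in WT control (53.05%). With both cytokines the *Il7r* promoter was at 59.57% in KO and 60.86% in WT. The other promoter DHSs in all 4 lists ranked lower in KO, and these differences were not tested.

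Of the 42 DHSs in WT TGF-β + IL-4, 5 (11.9%) had no overlapping DHS in the KO library of the same culture and 1 (2.4%) had none in WT control, against 30.6% and 10.8% of all DHSs in that list. In the other direction, 3 of 42 DHSs of the KO library (7.1%) had none in WT, against 12.8% of all. The 1 DHS of WT TGF-β + IL-4 without an overlapping DHS in WT control lay upstream of *Il2ra*, at -7034 bp from its start (fold 3.05). It was called in neither KO list. A site next to it, at -7558 bp, was called in WT control and had folds with both cytokines of 5.52 in WT and 4.04 in KO, and was not called in KO control. Of the 55 DHSs in WT control, 14 (25.5%) had no overlapping DHS in WT TGF-β + IL-4, against 31.9% of all.

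**Figure D4:**
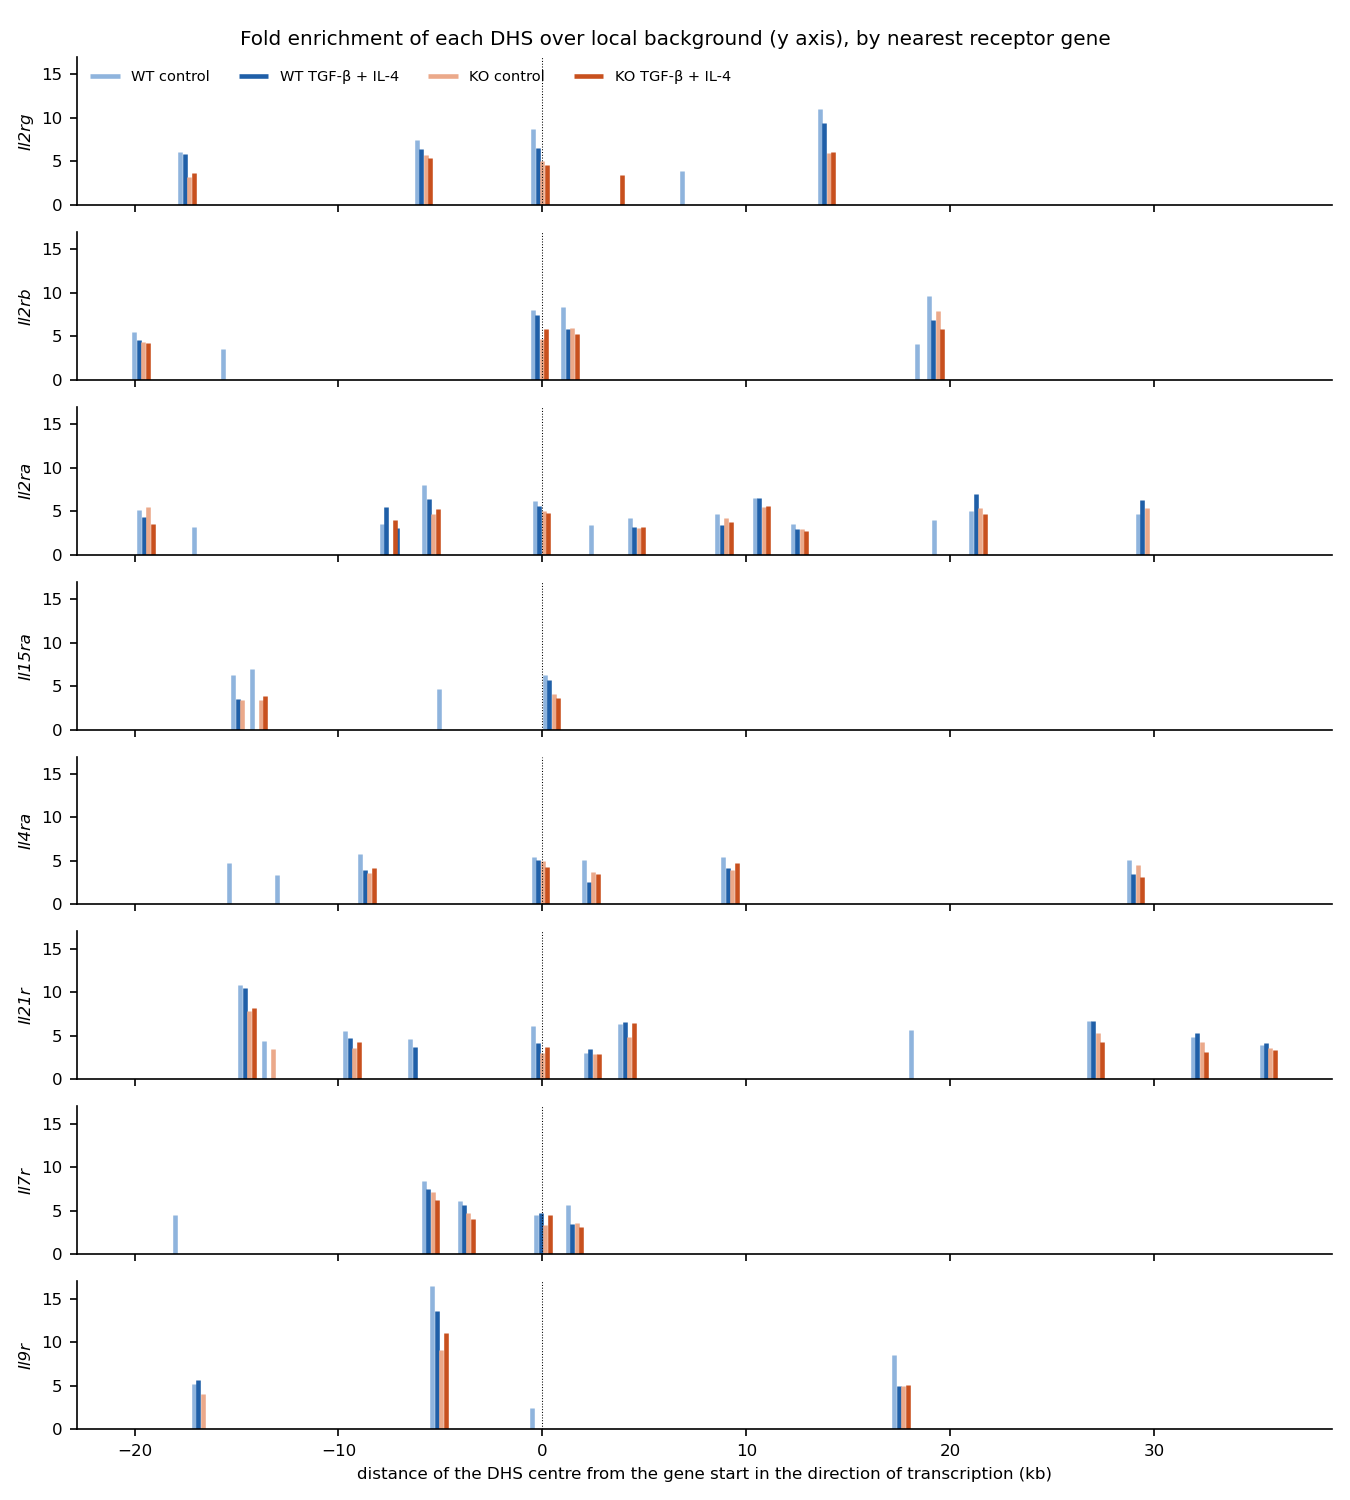
Fold enrichment over local background (y axis, same scale in all rows) of every DHS within 20000 bp of the 8 genes, by its distance from the start of the nearest of them in kb (x axis, positive downstream), with the 4 libraries side by side in 4 colours. The 7 genes above Il9r have a DHS of all 4 libraries at their start, and the single highest DHS, 16.4 in WT control, lies upstream of Il9r in another gene.

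STAT proteins bind palindromes made of TTC and GAA, with 3 bases between for most STATs and 4 for STAT6, and both forms read the same on either strand. TTCNNNGAA was within 150 bp of the summit in 10 of the 57 sites (17.5%) and the form with a 4-base gap in 4 (7.0%). Over all DHSs the shares were 9.16% to 10.3% and 6.97% to 8.69% in the 4 lists. Matches in introns of *Il2ra* and *Il4ra* are shown, since these chains bind IL-2 and IL-4 and their own levels are described above, together with 1 beyond the 3′ end of *Il2rb*. Letters are from the mm9 plus strand, and capitals mark the matches:

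*Il4ra* intron 2382 bp from the start, chr7:132698105-132698309: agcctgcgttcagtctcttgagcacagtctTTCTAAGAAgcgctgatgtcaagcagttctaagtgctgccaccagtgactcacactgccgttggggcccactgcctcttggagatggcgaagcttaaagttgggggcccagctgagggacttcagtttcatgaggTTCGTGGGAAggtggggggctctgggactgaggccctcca
*Il4ra* intron 9208 bp from the start, chr7:132704955-132705023: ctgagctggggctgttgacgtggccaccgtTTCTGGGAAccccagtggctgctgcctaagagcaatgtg
*Il2ra* intron 2695 bp from the start, chr2:11567127-11567241: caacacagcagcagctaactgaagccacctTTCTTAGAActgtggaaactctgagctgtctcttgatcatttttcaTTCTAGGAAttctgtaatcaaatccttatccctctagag
*Il2ra* intron 4617 bp from the start, chr2:11569048-11569116: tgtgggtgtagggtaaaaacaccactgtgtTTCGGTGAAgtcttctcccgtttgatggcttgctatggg
*Il2ra* intron 8914 bp from the start, chr2:11573148-11573281: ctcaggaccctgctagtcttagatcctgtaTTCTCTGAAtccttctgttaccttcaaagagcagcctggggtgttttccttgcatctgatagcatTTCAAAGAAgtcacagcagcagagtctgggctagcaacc
*Il2ra* intron 10736 bp from the start, chr2:11575026-11575095: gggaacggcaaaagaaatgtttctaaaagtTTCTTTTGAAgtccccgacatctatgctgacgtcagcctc
*Il2rb* intergenic 19291 bp downstream of the start, chr15:78306077-78306145: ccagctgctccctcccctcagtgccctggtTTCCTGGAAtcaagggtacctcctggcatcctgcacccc

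The *Il4ra* site 2382 bp from the start is the 1 site of the 57 that holds both forms, and it was called in all 4 lists, with folds of 5.09 (control) and 2.58 (both cytokines) in WT and 3.71 and 3.49 in KO. The *Il2ra* site 8914 bp from the start holds TTCNNNGAA at 2 places and was in all 4 lists (4.65, 3.41, 4.19 and 3.75 in the same order). Another with 2, at 2695 bp, was in the WT control list alone (3.44). The site at 4617 bp holds 1 and was in all 4 lists (4.17, 3.13, 3.12 and 3.21). The site at 10736 bp holds the form with the 4-base gap and had folds of 6.47, 6.48, 5.52 and 5.64. The *Il2rb* site had folds of 9.62, 6.88, 7.91 and 5.79. A match is a run of letters, and binding was not measured here.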

How the data were processed

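RNA-seq (Smart-seq2) and DNase-seq libraries came from cultured naïve CD4+ T cells. For alignment to mm9 the authors used Bowtie2, and after dropping poorly mapped and redundant reads the authors computed the deposited RPKM values with edgeR. They called DHSs per library with MACS2, and the deposited lists give a fold enrichment (ratio) over background and -log10 q-values. Versions are not given in the sources used here. Columns of RPKM were read by position, because headings conflict with read counts in the supplement of the study, which served only for that check. Relative depth from the RPKM steps was 0.794 to 1.656. Genes with a mean of at least 1 RPKM (9726 of 24089) were fitted as log2(RPKM + 1) with limma 3.58.1 (trend) in R 4.3.3 over 8 group means, in 14 comparisons, with Benjamini-Hochberg adjustment over all genes and calls at an adjusted p under 0.01 and a fold over 1.5. Count models were not used, since RPKM values are not counts. The fit was tested on simulated data. The members and lists were chosen with earlier results of these data known. All members, the ligands, listed genes called in WT TGF-β + IL-4 and the 3 genes most like each member were named, apart from 1 gene that is not reported here.

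Alternatives were the headings, 8 identified WT libraries, other scalings, filters, pseudocount, fits, a replicate block, leaving out each library, and stricter DHS lists and overlaps.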

Additional observations from a re-analysis of the deposited data

Results flagged for a closer look

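The change with TGF-β differed between KO and WT for 4 of 7 receptor genes by a test of the difference itself, with no fold asked for (limma, adjusted p under 0.01). On the log2 scale it was higher in KO for *Il15ra* by 1.19 and for *Il21r* by 0.90. It was lower in KO for *Il2ra*, with a difference of -0.59, and for *Il2rb*, with one of -0.43. For TGF-β + IL-4 the same test found differences of 0.99 for *Il15ra*, 0.62 for *Il21r* and -0.49 for *Il2rb*. In WT the change of *Il21r* with IL-4 was higher in the presence of TGF-β than in its absence by 0.57. Of these, the 2 values for *Il2rb* and the last for *Il21r* lie below a fold of 1.5. Each rests on 3 libraries per group. The share of all genes that pass without the fold is not given here, so these counts have no background. With the fold, 3 of 7 members were called for TGF-β (4.23% of all genes) and 2 of 7 for TGF-β + IL-4 (5.17%). No member was called for TGF-β with IL-4 in WT (1.25%).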

How the results depend on the processing

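Of the 18 member values called, all 18 were called again with a pseudocount of 0.1, without a filter, with a mean of at least 5 RPKM, with only the compared groups in the fit, without the trend, at an adjusted p under 0.05 and with a replicate block. The replicate block changed no member's call. The numbers are shared by label only. Deviations from group means correlated at a median r of 0.062 in WT and 0.188 in KO for same-numbered libraries (18 pairs each, from -0.297 to 0.553), against -0.032 and -0.123 for other pairs, and 8 of 12 WT and 10 of 12 KO libraries correlated best with their own number. With the 8 identified WT libraries, 7 of 7 were called again. Read as headed, all 18 were lost, and 0 members were called in every comparison. Median-ratio scaling lost *Il2ra* in the interaction of genotype with TGF-β (-0.56), and quantile normalization lost *Il21r* in that with TGF-β + IL-4 (0.54). None of the 18 changed direction under these settings.

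By quantile normalization 2 members were called between WT TGF-β + IL-4 and WT TGF-β, 1 in the interaction of genotype with both cytokines and 1 in that of TGF-β with IL-4. Of 9726 genes that setting called 189 higher and 34 lower in the first comparison. It called 190 and 331 in the second, and 109 and 38 in the last. Leaving out 1 library gave 1 to 2, 1 to 2 and 0 to 1 members in the same order. No share over all genes stands beside these counts. The count moved without the WT TGF-β library of replicate 1 or the WT TGF-β + IL-4 library of replicate 3 in the first, without KO control of replicate 1 or KO TGF-β + IL-4 of replicate 3 in the second, and without WT TGF-β of replicate 1, WT IL-4 of replicate 3 or WT TGF-β + IL-4 of replicate 3 in the last. The cause was not tested. With an overlap of 50% of each DHS, 8 of 42 DHSs of WT TGF-β + IL-4 were missing in KO TGF-β + IL-4, 8 of 42 the other way and 2 of 42 in WT control. At a -log10 q of at least 5 the first was 9 of 39 and the last 0 of 39. The shares over all DHSs were not counted under these 2 settings, so these counts have no background. The promoter DHSs of *Il15ra* in KO TGF-β + IL-4 and *Il9r* in WT control were also lost at that q.

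Among the counts over all genes, the replicate block moved only that of genes higher in the interaction of genotype with IL-4 by over 1.5 times, from 11 to 18. Read as headed, 9 genes were higher and 30 lower in KO than in WT control, 10 and 49 with both cytokines, and 0 in the comparisons between cultures. *Il9r* was too low to be tested under any setting with a filter.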
